A study of Mus musculus with 13 samples.

Results

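Elastic fibre and microfibril genes were followed in UG26-1B6, a stromal cell clone grown out of the urogenital ridge of a midgestation mouse embryo. The members were 10 listed genes: the fibrillin genes Fbn1 and Fbn2, the microfibril gene Mfap5, the elastin gene Eln, the fibulin genes Fbln1, Fbln2 and Fbln5, the latent TGF-beta binding protein genes Ltbp1 and Ltbp2, and the lysyl oxidase gene Lox. A probe set counted as a member's if the platform annotation gave it that gene symbol and no other, and where a gene had several, the brightest by its mean over the 13 arrays stood for the gene. Of the 10 members, 9 had such a probe set and 8 passed the filter on low values, among 12205 genes that passed it. Fbn1 was not analysed here, and Eln did not pass the filter. Every test below therefore covers 8 members.

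The 13 Affymetrix arrays fall into 5 groups of this clone. Day 0 cells (n = 3) were trypsinised before any co-culture. A medium control (n = 2) received fresh medium 24 h before harvest, and so matches LSK day 1 in time. Stroma for co-culture was irradiated at confluence, at a dose of 30 Gy, and kept for 1 day (n = 3), 2 days (n = 3) or 3 days (n = 2) with LSK cells, which are Lineage- Sca-1+ Kit+ bone marrow cells rich in haematopoietic stem and progenitor cells. No label says if day 0 or medium control cells were irradiated too. Both may therefore differ from co-culture in irradiation as well as in LSK cells. Day 0 also differs from co-culture in time and handling. All groups are of 1 clone, so the values describe that clone. Replicates are biological in the sample titles but technical in the design text, so the spread behind each p-value may be technical.

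Elastic fibres form when elastin is laid down on a scaffold of microfibrils. Fibrillins polymerise into the microfibrils, small glycoproteins such as the product of Mfap5 bind to them, and fibulins help to bring elastin to the scaffold, where lysyl oxidase cross-links it. Latent TGF-beta binding proteins attach to fibrillin and hold the growth factor TGF-beta in the matrix in an inactive form. Through these proteins the matrix of a stromal cell acts both as a mechanical support and as a store of growth factors.

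Levels are the deposited log2 values of a probe set, in which a difference of 1 is a doubling of the signal. They are set side by side between arrays for the same probe set and not between genes, since probe sets differ in brightness. The marker sums and the counts of markers above 5 do combine genes, and the brightest probe sets weigh most in a sum. The lowest value in the table, 2.28, is shared by many probe sets and stands for no measurable signal. A change is the log2 difference of group means ± its standard error. A gene was called when limma's adjusted p (Benjamini-Hochberg over 12205 genes) was under 0.05.

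Some arrays stood apart. LSK day 2 replicate 1 correlated across probe sets at 0.785 with its nearest other array, against 0.936 to 0.990 for the other 7 LSK arrays and 0.980 to 0.996 without LSK cells. The 3' minus 5' difference of Gapdh probe sets, a sign of RNA integrity, was 8.96 on that array and 5.79 on LSK day 3 replicate 2, against 2.15 to 3.82 on the arrays without LSK cells. Poly-A spike-in probe sets averaged 10.1 to 14.4 on the LSK arrays and 4.63 to 8.55 on the arrays without them. The summed signal of 16 blood cell markers, on the log2 scale, was 9.08 to 10.9 at LSK day 1, 11.8 to 15.5 at LSK day 2 and 12.998 to 13.6 at LSK day 3, against 6.91 to 7.01 in the medium control and 6.91 to 7.69 at day 0. Of these 16, up to 12 lay above 5 on an LSK array and at most 1 on an array without LSK cells, while Kit, Spi1, Cd48 and Csf3r were not above 5 on any array. Among 12 mesenchymal markers, 10 lay above 5 on every array without LSK cells, and Thy1 and Nt5e on none. Their summed signal was 12.9 to 14.8 on the LSK arrays and 14.3 to 15.5 without LSK cells. At LSK days 1 and 3 10 of these markers also lay above 5, and at LSK day 2 6 to 10. On LSK day 2 replicate 1 Col1a2 was 3.71, Col3a1 4.09, Pdgfra 4.71 and Twist1 2.28. Vim and S100a4 were 13.22 and 13.17 on that array. Of 7 endothelial markers, Pecam1, Cdh5 and Emcn lay at 2.28 and Cldn5 at 2.34 on all 13 arrays, while Kdr was 8.59 to 9.19 at LSK day 1 and 10.40 and 10.42 in the medium control, against 5.89 to 6.66 at day 0. Vwf lay above 5 on LSK day 2 replicate 1 (8.59) and LSK day 3 replicate 2 (5.59), and Tek on day 0 replicate 2 (7.12). The part of these markers in the results was not tested. Each member's result in the fit of 12205 genes is given with LSK day 2 replicate 1 left out where that changes its call.

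**Figure D1:**
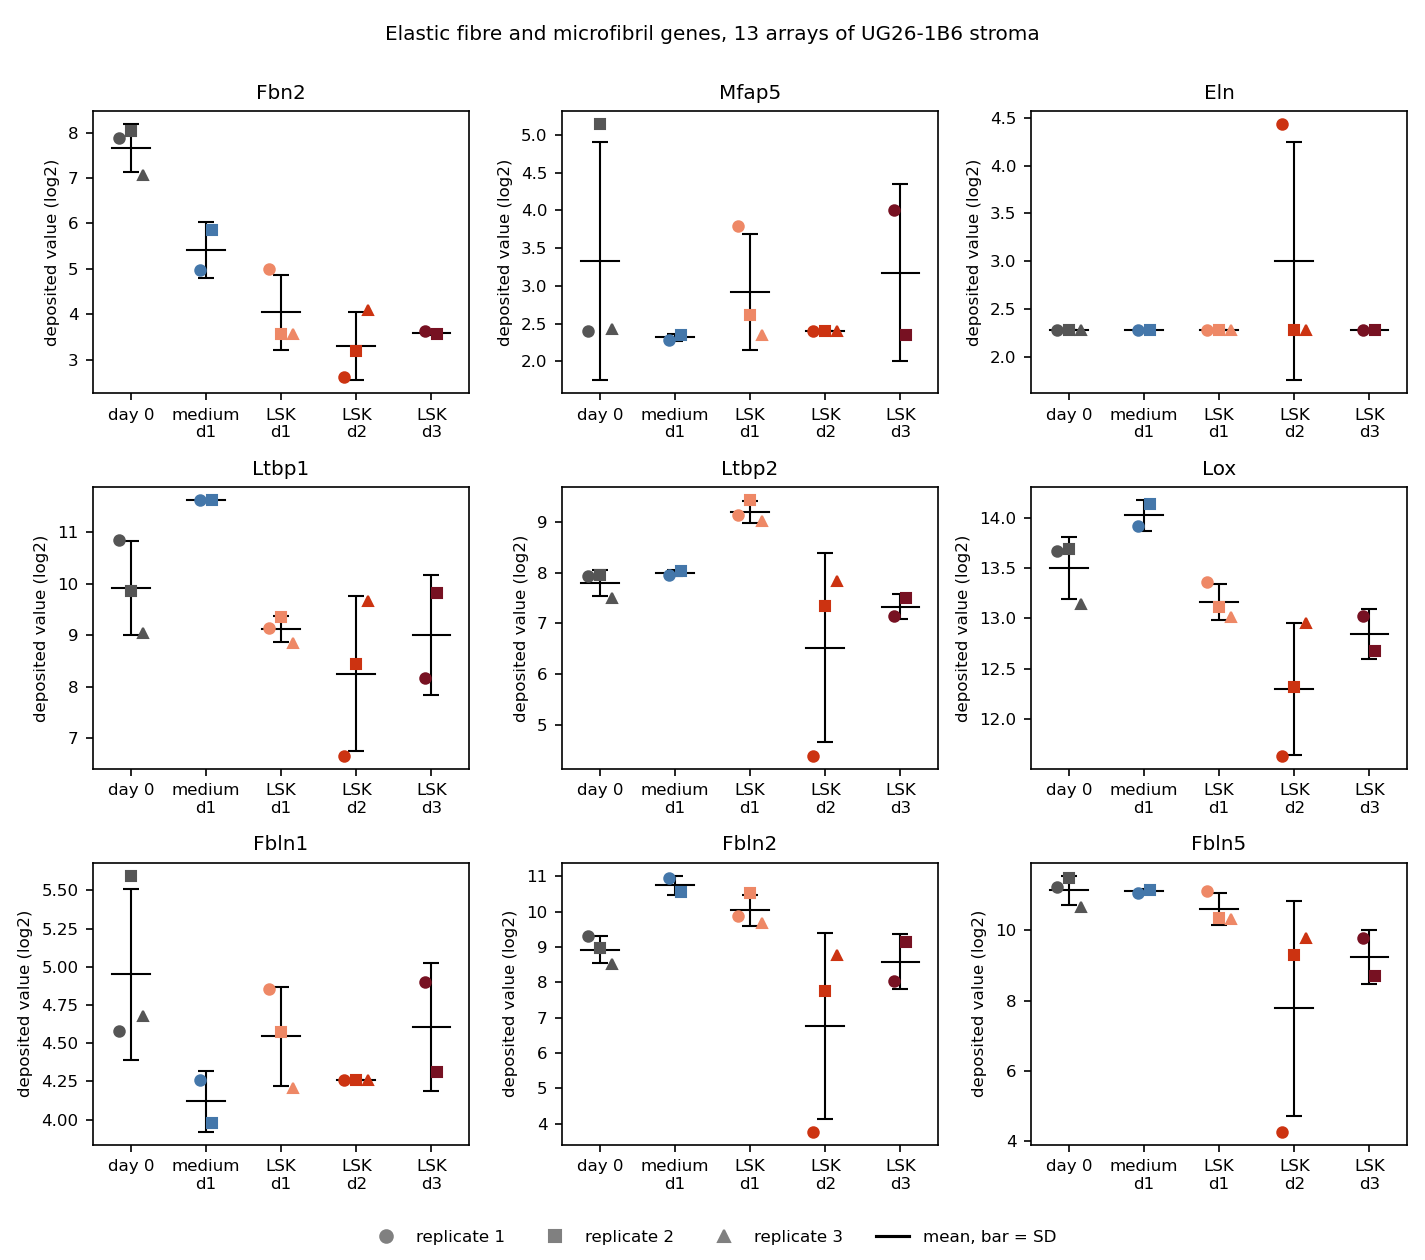
Deposited log2 value (vertical axis, a scale of its own in each panel) of the probe set that represents each of 9 members, by group (horizontal axis). Points are arrays, the long bar is the group mean and the thin bar the SD; Fbn2 reaches no more than 5.85 outside day 0, against 7.06 to 8.04 at day 0, and Ltbp2 spans 9.03 to 9.44 at LSK day 1 and stays at or below 8.03 in every other group.

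The fibrillin gene Fbn2 was lower in co-culture than at day 0 and was the only member called with all 13 arrays. Fibrillin-2 is the fibrillin of developing tissues and is laid down mainly in the embryo. Its probe set 1454830_at measured 7.88, 8.04 and 7.06 at day 0, 4.98 and 5.85 in the medium control, 5.01, 3.56 and 3.56 at LSK day 1, 2.62, 3.18 and 4.10 at LSK day 2, and 3.63 and 3.57 at LSK day 3. All 8 co-culture arrays and both medium arrays lay below all 3 day 0 arrays, and LSK day 1 replicates 2 and 3 shared exactly 1 value. Group means ± SD were 7.66 ± 0.53 at day 0, 5.41 ± 0.61 in the medium control, 4.04 ± 0.83 at LSK day 1, 3.30 ± 0.75 at LSK day 2 and 3.60 ± 0.04 at LSK day 3.

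Against day 0, Fbn2 fell by 3.62 ± 0.51 on the log2 scale at LSK day 1, a 12.3-fold lower signal (limma, adjusted p = 0.0117). It fell by 4.36 ± 0.51 at LSK day 2, which is 20.6-fold (adjusted p = 0.00777). At LSK day 3 it fell by 4.06 ± 0.57, which is 16.7-fold (adjusted p = 0.0233). Without LSK day 2 replicate 1 the LSK day 2 difference was -4.02 ± 0.53 (adjusted p = 0.0132). An unknown share of low values reflects background correction, so the fold sizes are approximate. The comparisons of LSK days 1, 2 and 3 with day 0 share the same 3 day 0 arrays. In each of them Fbn2 was the only 1 of 8 tested members called. Among all 12205 genes, 2.15% were called at LSK day 1, 2.26% at LSK day 2 and 0.819% at LSK day 3, and those called lower made up 1.33%, 1.62% and 0.467%. The LSK day 1 call ended without day 0 replicate 2 (adjusted p = 0.0574), LSK day 1 replicate 2 (0.0703) or LSK day 1 replicate 3 (0.0764). Those fits called 0.459%, 0.0737% and 0.115% of all genes. Over the 13 fits that left out an array, the LSK day 1 change lay between -4.10 and -3.38. The LSK day 2 call held without any single array but not when only the compared groups were fitted (adjusted p = 0.289). That last fit called 0% of all genes. At LSK day 3 the call ended without day 0 replicate 1 or 2 (0.451% and 0.0328% of all genes called). It also ended without LSK day 1 replicate 2 or 3 (0.0737% and 0.0574%). The LSK day 3 call held in 6 of the 13 fits that left out an array, with adjusted p-values up to 0.0977.

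In the medium control Fbn2 differed from day 0 by -2.25 ± 0.57 (adjusted p = 0.190), which did not pass. At LSK day 1 it differed from the medium control by -1.37 ± 0.57 (adjusted p = 0.204), which did not pass either, and LSK day 1 replicate 1 at 5.01 lay between both medium arrays. Between days of co-culture the change was -0.75 ± 0.51 at LSK day 2 and -0.44 ± 0.57 at LSK day 3, each against LSK day 1 (adjusted p = 0.486 and 1), and the 3 days overlapped. A second Fbn2 probe set lay exactly at the lowest value of the table on 10 arrays and at most at 2.71 on the others, and did not pass the filter. The RNA of a co-culture well can hold LSK-derived RNA beside that of stroma, and in such bulk RNA fewer cells of a type and less RNA per cell cannot be told apart. The blood marker signal was higher wherever Fbn2 was called lower, and its part in that result was not tested. In the medium control, where Fbn2 was 4.98 and 5.85, that signal was 6.91 and 7.01, against 6.91 to 7.69 at day 0.

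Over the 13 arrays, the tested genes whose values ran closest to Fbn2 were Ccn3, with a Pearson correlation of 0.973, Sfrp2 with 0.967 and Fam13c with 0.945. Without LSK day 2 replicate 1 the correlations were 0.978, 0.962 and 0.937 over 12 arrays. Ccn3 encodes a matricellular protein and Sfrp2 a secreted Wnt antagonist. The arrays share their groups, so these correlations are a description only.

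The other microfibril gene with a probe set, Mfap5, was near the lowest value on most arrays. It encodes a small glycoprotein that binds fibrillin. Its probe set 1449082_at measured 2.41, 5.15 and 2.42 at day 0, 2.28 and 2.35 in the medium control, 3.79, 2.62 and 2.35 at LSK day 1, 2.41 on each of the 3 LSK day 2 arrays, and 4.003 and 2.35 at LSK day 3. Single arrays of 3 groups were high and the groups overlapped at LSK day 1 and day 3. The second probe set, 1418454_at, was also highest on day 0 replicate 2 (4.56) and LSK day 1 replicate 1 (4.15), and lay at most at 2.64 elsewhere. No comparison called Mfap5, with changes between -1.01 ± 0.82 (medium control against day 0) and 0.60 ± 0.82 (LSK day 1 against the medium control). Fbln1, described below, was high on the same day 0 array, and the values of both genes correlated at 0.912 over the 13 arrays.

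Eln, which encodes the elastin precursor, gave no measurable signal on nearly all arrays. Its probe set 1420854_at lay exactly at the lowest value of the table on 12 arrays and at 4.43 on LSK day 2 replicate 1, the array that stood apart. The other probe set, 1420855_at, lay between 2.28 and 2.36. Eln was therefore not tested, and values at 2.28 do not show that the gene is silent.

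The latent TGF-beta binding protein genes differed in opposite directions between LSK day 1 and the medium control, each in the probe set that represents it. Ltbp2 encodes a family member that binds fibrillin and fibulins but not latent TGF-beta itself. Its probe set 1418061_at measured 7.93, 7.95 and 7.50 at day 0, 7.95 and 8.03 in the medium control, 9.14, 9.44 and 9.03 at LSK day 1, 4.38, 7.34 and 7.84 at LSK day 2, and 7.15 and 7.51 at LSK day 3. The 3 LSK day 1 arrays lay above the other 10. Ltbp2 was 1.21 ± 0.81 higher at LSK day 1 than in the medium control (limma, adjusted p = 0.479) and 1.41 ± 0.73 higher than at day 0 (adjusted p = 0.372), and neither difference was called with all 13 arrays in the fit.

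The lack of these calls rested on LSK day 2 replicate 1, which belongs to neither comparison but enters the shared estimate of the spread. Without it the differences were the same, their standard errors were 0.23 and 0.20, and both were called, with adjusted p = 0.0123 against the medium control and 0.0069 against day 0. The genes called in those fits rose to 17.2% and 10.6% of all 12205, against 5.2% and 2.15% with all arrays, so calls were more frequent across the whole table. Fitting only the compared groups also called Ltbp2, with adjusted p = 0.0105 against the medium control and 0.0165 against day 0. At LSK day 3 Ltbp2 differed from LSK day 1 by -1.87 ± 0.81, with adjusted p = 1 for all arrays and 0.0153 without LSK day 2 replicate 1 (0.00819% and 0.221% of all genes called). At LSK day 2 it differed from LSK day 1 by -2.69 ± 0.73 with all arrays and by -1.62 ± 0.23 without that array (adjusted p = 0.378 and 0.149). At LSK day 3 it differed from day 0 by -0.46 ± 0.81 (adjusted p = 0.918), and those groups overlapped. The medium control differed from day 0 by 0.20 ± 0.81 and LSK day 2 by -1.28 ± 0.73 (adjusted p = 1 and 0.278).

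Ltbp1 encodes a carrier that is bound to TGF-beta from secretion on. Its probe set 1448870_at measured 10.85, 9.86 and 9.04 at day 0, 11.62 and 11.62 in the medium control, 9.14, 9.36 and 8.85 at LSK day 1, 6.65, 8.44 and 9.65 at LSK day 2, and 8.17 and 9.82 at LSK day 3. Both medium arrays lay above the other 11. At LSK day 1 Ltbp1 differed from the medium control by -2.51 ± 0.83, a 5.68-fold lower signal, which did not pass with all arrays (adjusted p = 0.117) and did without LSK day 2 replicate 1 (adjusted p = 0.0301). Against day 0 it differed by 1.71 ± 0.83 in the medium control and by -0.80 ± 0.75 at LSK day 1 (adjusted p = 0.593 and 0.712). The LSK day 1 arrays overlapped the day 0 arrays. LSK days 2 and 3 differed from day 0 by -1.66 ± 0.75 and -0.92 ± 0.83 (adjusted p = 0.192 and 0.726).

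The other Ltbp1 probe sets did not follow the first. Probe set 1447547_at measured 5.00, 4.97 and 4.42 at day 0, 6.21 and 6.20 in the medium control, 6.63, 6.63 and 5.75 at LSK day 1, 5.44, 5.49 and 5.49 at LSK day 2, and 4.74 and 5.47 at LSK day 3. All 3 LSK day 1 arrays lay above all 3 day 0 arrays there, and the change was 1.54 ± 0.29 (limma over 25216 probe sets, adjusted p = 0.0324, with 1.91% of all probe sets called). Against the medium control the same probe set changed by 0.13 ± 0.32 at LSK day 1. The third, 1419786_at, lay between 2.40 and 3.84 and was 0.96 ± 0.27 higher at LSK day 1 than at day 0 (adjusted p = 0.117). All 3 were higher in the medium control than at day 0, while LSK day 1 against day 0 was lower in 1 and higher in 2. The direction of Ltbp1 at LSK day 1 therefore depends on the probe set.

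Ltbp1 has more than 1 start site in the annotation, and Ltbp1, Ltbp2 and Fbln2 are the members whose levels differed most between LSK day 1 and the medium control or day 0 apart from Fbn2. Their promoters are shown from 250 bases before to 50 after a start, 5′ to 3′ on the gene's strand, as given by RefSeq for build GRCm38.p6. Promoter sequences were held for 6 members. Capitals mark matches, on either strand, to any of 6 motifs: the AP-1 site TGANTCA, the TATA box TATAAA, the GC box GGGCGG bound by Sp factors, the TEAD site GGAATG, the SMAD palindrome GTCTAGAC, and CAGACA, which holds the core bound by SMAD proteins downstream of TGF-beta. All matches within a printed sequence are of 1 motif.
Ltbp2, chr12:84876442-84876741, minus strand: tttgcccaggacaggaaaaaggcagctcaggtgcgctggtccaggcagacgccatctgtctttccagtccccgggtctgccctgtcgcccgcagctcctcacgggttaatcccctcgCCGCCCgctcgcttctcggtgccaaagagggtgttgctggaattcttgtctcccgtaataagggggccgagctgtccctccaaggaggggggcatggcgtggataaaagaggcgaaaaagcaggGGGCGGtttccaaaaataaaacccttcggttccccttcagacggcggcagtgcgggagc
Ltbp1, first start, chr17:75005279-75005578, plus strand: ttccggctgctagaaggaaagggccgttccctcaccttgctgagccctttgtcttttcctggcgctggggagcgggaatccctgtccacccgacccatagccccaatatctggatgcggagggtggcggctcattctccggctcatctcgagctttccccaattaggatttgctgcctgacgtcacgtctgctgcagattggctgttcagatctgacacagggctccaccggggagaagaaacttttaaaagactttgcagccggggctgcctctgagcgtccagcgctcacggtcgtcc
Ltbp1, second start, chr17:75178531-75178830, plus strand: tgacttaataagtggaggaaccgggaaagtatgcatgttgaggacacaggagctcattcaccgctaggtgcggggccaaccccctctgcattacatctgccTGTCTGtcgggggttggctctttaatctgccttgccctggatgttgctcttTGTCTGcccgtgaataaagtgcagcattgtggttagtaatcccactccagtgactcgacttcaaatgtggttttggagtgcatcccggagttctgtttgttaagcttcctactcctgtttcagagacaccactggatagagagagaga
Fbln2, chr6:91212514-91212813, plus strand: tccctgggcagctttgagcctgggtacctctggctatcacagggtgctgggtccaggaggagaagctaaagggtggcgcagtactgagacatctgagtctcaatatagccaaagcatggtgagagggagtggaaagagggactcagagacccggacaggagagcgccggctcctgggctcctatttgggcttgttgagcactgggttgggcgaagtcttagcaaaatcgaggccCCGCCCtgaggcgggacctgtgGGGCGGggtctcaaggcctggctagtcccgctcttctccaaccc

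The Ltbp2 and Fbln2 promoters each held 2 GC boxes, and 35.7% of 32851 promoters of that length held at least 1. They had 61.0% and 60.3% G and C against a median of 52.7%. The first Ltbp1 start held none of the 6 motifs. The second held 2 copies of CAGACA, and 6913 of the 32851 promoters held at least 1. None of the 4 printed windows held the AP-1, TATA, TEAD or SMAD palindrome letters, found in 7.81%, 13.6%, 14.7% and 0.213% of promoters. These matches describe letters in a window. Which start the Ltbp1 probe sets read was not analysed here.

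**Figure D2:**
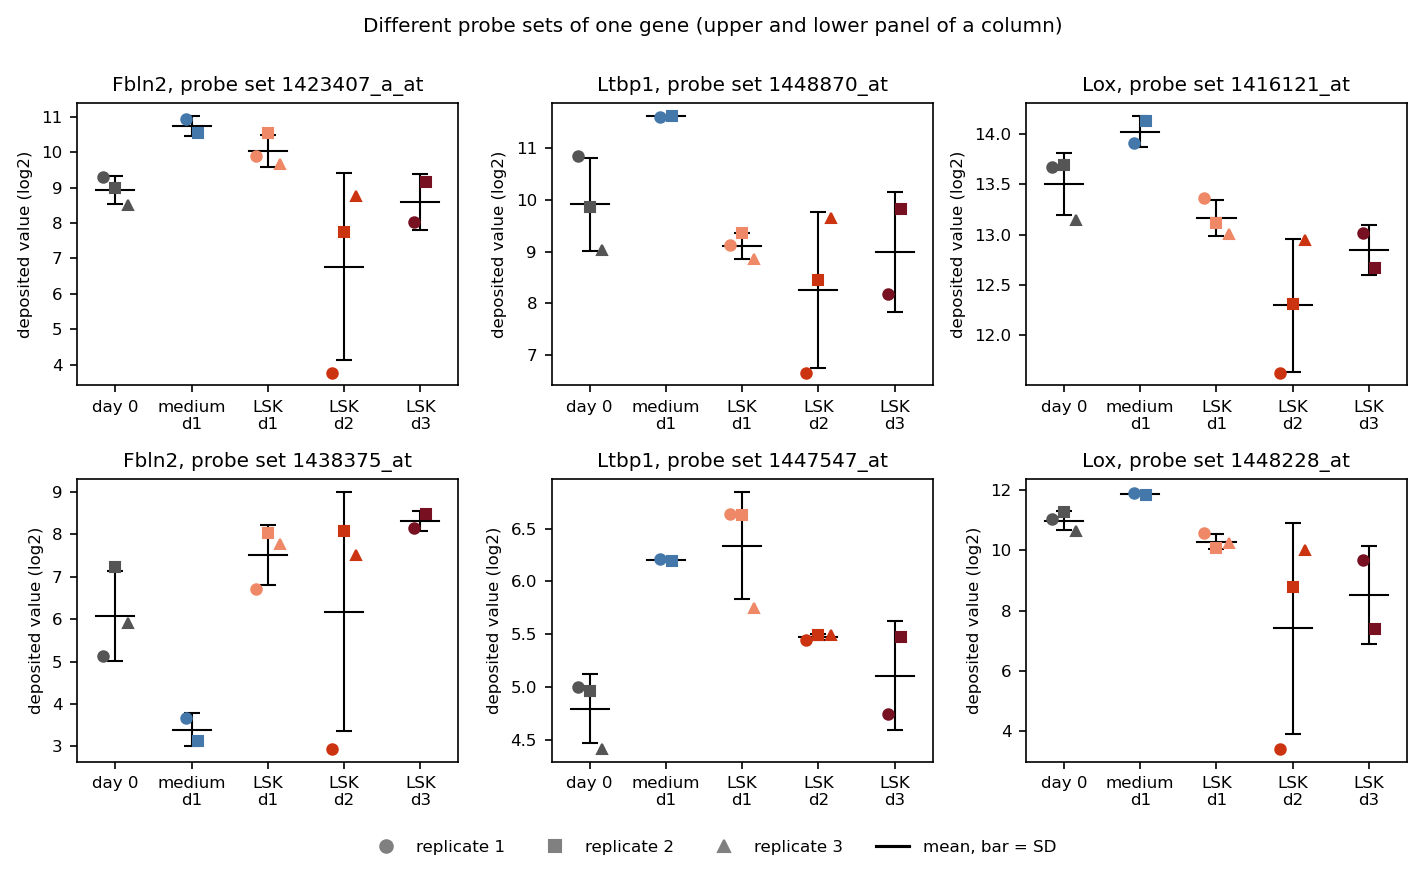
Deposited log2 value (vertical axis) by group (horizontal axis) for a pair of probe sets each of Fbln2, Ltbp1 and Lox, with points for arrays, the long bar for the mean and the thin bar for the SD. Both medium arrays are high in the upper Fbln2 panel (10.94 and 10.54) and low in the lower one (3.67 and 3.12), while the Lox panels run alike.

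The fibulin genes differed among themselves. Fbln2 encodes a large fibulin of basement membranes and vessel walls that binds fibrillin and elastin. Its probe set 1423407_a_at measured 9.30, 8.97 and 8.51 at day 0, 10.94 and 10.54 in the medium control, 9.89, 10.54 and 9.67 at LSK day 1, 3.77, 7.74 and 8.77 at LSK day 2, and 8.03 and 9.15 at LSK day 3. Both medium arrays and all 3 LSK day 1 arrays lay above every other array. The change was 1.81 ± 1.17 in the medium control and 1.11 ± 1.05 at LSK day 1, each against day 0, and neither passed with all arrays (adjusted p = 0.774 and 0.716) or without LSK day 2 replicate 1 (adjusted p = 0.0959 and 0.119). At LSK day 2 it differed from LSK day 1 by -3.27 ± 1.05 (adjusted p = 0.378), with 3.77 on the array that stood apart. LSK days 2 and 3 differed from day 0 by -2.16 ± 1.05 and -0.34 ± 1.17 (adjusted p = 0.219 and 1).

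A second Fbln2 probe set, 1438375_at, read the medium control in the opposite direction. It measured 5.13, 7.22 and 5.90 at day 0, 3.67 and 3.12 in the medium control, 6.70, 8.04 and 7.77 at LSK day 1, 2.95, 8.08 and 7.50 at LSK day 2, and 8.15 and 8.48 at LSK day 3. The 2 medium arrays lay below all 3 day 0 arrays here and above them in the first probe set. At LSK day 1 it was 4.11 ± 1.31 higher than in the medium control (limma over all probe sets, adjusted p = 0.103), where the first probe set gave -0.71 ± 1.17. Against day 0 both probe sets were higher at LSK day 1, by 1.11 and by 1.42 ± 1.18, without passing. No direction of Fbln2 against the medium control can be given from these probe sets.

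Fbln5 encodes a fibulin that binds elastin, integrins and lysyl oxidase-like enzymes and is needed for elastic fibre assembly in mice. Its probe set 1416164_at measured 11.23, 11.50 and 10.67 at day 0, 11.07 and 11.16 in the medium control, 11.13, 10.36 and 10.33 at LSK day 1, 4.27, 9.31 and 9.79 at LSK day 2, and 9.78 and 8.69 at LSK day 3. All 5 arrays of LSK days 2 and 3 lay below the other 8. The medium control differed from day 0 by -0.02 ± 1.33 and LSK day 1 by -0.53 ± 1.19 (adjusted p = 1 and 0.976). At LSK day 2 it differed from day 0 by -3.34 ± 1.19 with all arrays (adjusted p = 0.130) and by -1.59 ± 0.40 without LSK day 2 replicate 1 (adjusted p = 0.0749). At LSK day 3 it differed from day 0 by -1.90 ± 1.33 (adjusted p = 0.611), which was called without that array, at a standard error of 0.40 (adjusted p = 0.0271, with 7.69% of all genes called). With LSK day 3 replicate 2 left out as well, the LSK day 3 difference was -1.35 and did not pass (adjusted p = 0.112).

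Fbln1, a fibulin that associates with fibronectin and elastic fibres, measured 4.58, 5.60 and 4.68 at day 0 in probe set 1422540_at. It measured 4.26 and 3.98 in the medium control, 4.85, 4.57 and 4.21 at LSK day 1, 4.26 on each LSK day 2 array, and 4.90 and 4.31 at LSK day 3. The value 4.26 was shared exactly by 4 arrays, and day 0 replicate 2 was the highest of the 13. No comparison called Fbln1. Its changes lay between -0.83 ± 0.34 (medium control against day 0, adjusted p = 0.455) and 0.42 ± 0.34 (LSK day 1 against the medium control, adjusted p = 0.578). The other probe sets of the gene lay at most at 3.81.

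Lox encodes lysyl oxidase, which cross-links elastin and collagen. Its probe set 1416121_at measured 13.67, 13.69 and 13.14 at day 0, 13.91 and 14.13 in the medium control, 13.36, 13.12 and 13.01 at LSK day 1, 11.63, 12.31 and 12.95 at LSK day 2, and 13.02 and 12.67 at LSK day 3. Both medium arrays lay above the other 11, and all arrays of LSK days 2 and 3 lay below day 0. At LSK day 1 Lox differed from the medium control by -0.86 ± 0.36 (adjusted p = 0.205, and 0.0503 without LSK day 2 replicate 1). At LSK day 2 it differed from day 0 by -1.20 ± 0.32, a 2.31-fold lower signal (adjusted p = 0.0752), and by -0.87 without that array (adjusted p = 0.103). At LSK day 3 the difference from day 0 was -0.66 ± 0.36 (adjusted p = 0.465). It was 0.52 ± 0.36 in the medium control and -0.34 ± 0.32 at LSK day 1 (adjusted p = 0.804 and 0.714). A second probe set, 1448228_at, gave the same order of groups, with 11.91 and 11.85 in the medium control, 10.57, 10.07 and 10.23 at LSK day 1, 3.41, 8.78 and 10.02 at LSK day 2 and 9.68 and 7.37 at LSK day 3, against 11.04, 11.28 and 10.65 at day 0. The third, 1437903_at, did not follow them: it was 5.57, 5.02 and 5.56 at LSK day 1, against 5.02 on all medium and day 0 arrays, and its change against the medium control was 0.37 ± 0.59 (adjusted p = 0.911). Lox and Fbln5 correlated at 0.881 over the 13 arrays and at 0.862 without LSK day 2 replicate 1, and Lox and Ltbp1 at 0.878 and 0.797. Other pairs of members fell further without that array, as Fbln2 and Ltbp2 from 0.895 to 0.658. Fbln5 and Ltbp2 fell from 0.829 to 0.367. The arrays share their groups, so these values are a description only.

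**Figure D3:**
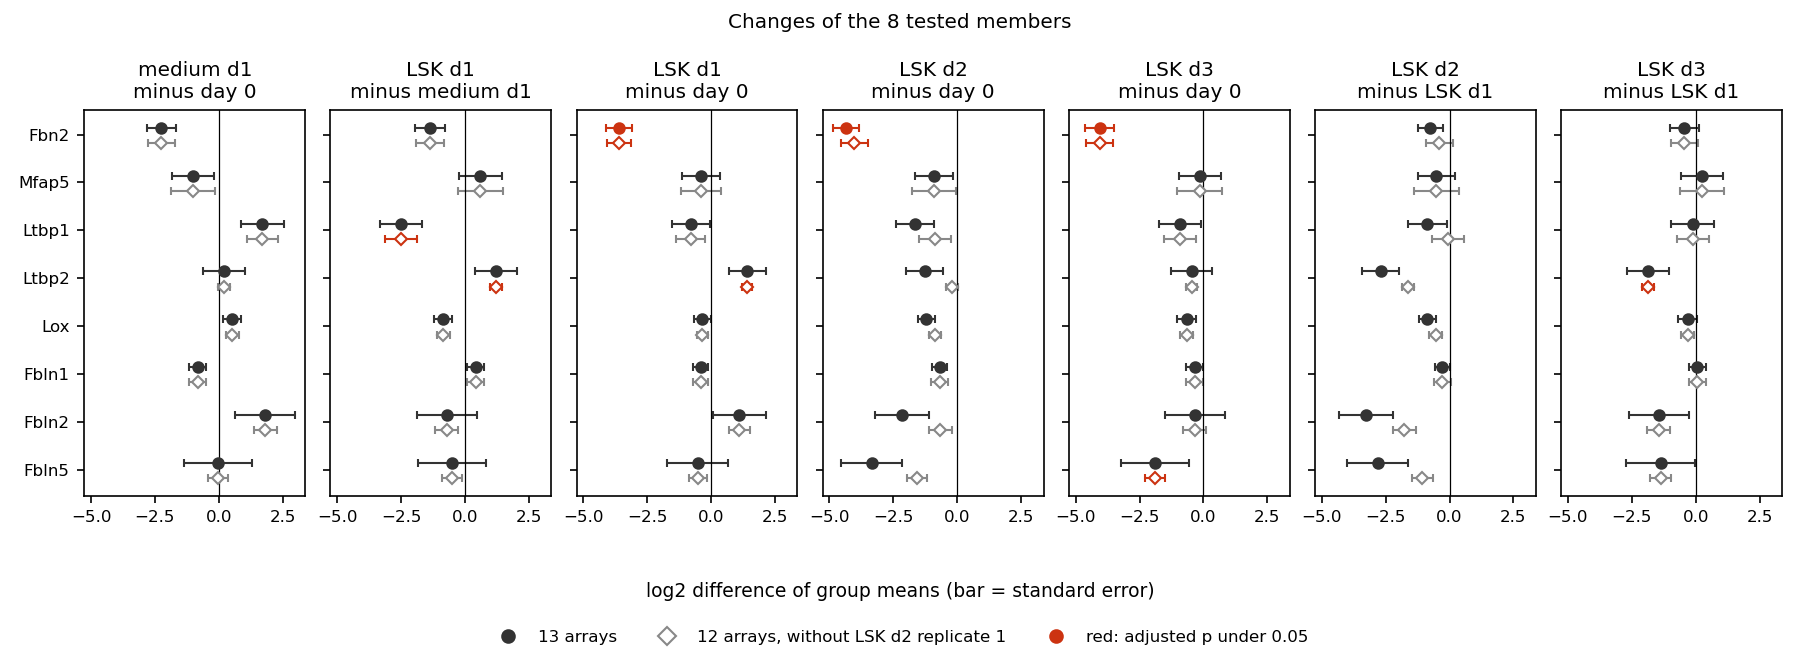
Log2 difference of group means (horizontal axis) for the 8 tested members (rows) in each of 7 comparisons (panels), with standard errors as bars. Filled points use 13 arrays, open diamonds leave out LSK day 2 replicate 1, and red marks an adjusted p under 0.05; Fbn2 alone is red among the filled points.

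Across the 7 comparisons, members called with all 13 arrays numbered 0 in the medium control against day 0 (0.328% of all genes called), 0 at LSK day 1 against the medium control (5.2%), 1 at each of LSK days 1, 2 and 3 against day 0, and 0 between days of co-culture (0.00819% in each). At an unadjusted p under 0.05, 2 members passed in the medium control against day 0 (9.45% of all genes) and 3 at LSK day 1 against the medium control (20.9%). Against day 0, 1 passed at LSK day 1 (17.3%), 4 at LSK day 2 (26.3%) and 1 at LSK day 3 (13.8%). Against LSK day 1, 4 passed at LSK day 2 (12.6%) and 1 at LSK day 3 (2.93%). The median change of the 8 members was 0.09 in the medium control against day 0, where the median of all genes was 0. At LSK day 1 it was -0.61 against the medium control and -0.41 against day 0, with all-gene medians of 0. At LSK day 2 against day 0 it was -1.47, with an all-gene median of -0.29, and at LSK day 3 it was -0.56, with an all-gene median of 0. Between LSK day 1 and later days it was -0.87 at LSK day 2 and -0.38 at LSK day 3, with all-gene medians of -0.19 and -0.02. The 10 tested mesenchymal markers had median changes against day 0 of -0.74 at LSK day 1, -2.39 at LSK day 2 and -1.29 at LSK day 3, with Prrx1, a mesenchymal transcription factor gene, called lower at LSK days 1 and 2. Without LSK day 2 replicate 1, 2 of these markers were called lower at LSK day 3 against day 0 (7.69% of all genes called). In that fit 2 were called higher and 1 lower at LSK day 1 against the medium control (17.2%). The part of these markers in the members' differences was not tested. As deposited, the probe sets that represent the 8 members all had lower means at LSK days 2 and 3 than at day 0. Other probe sets were higher at LSK day 2: Ltbp1 1447547_at (0.68) and 1419786_at (0.44), Fbln1 1439688_at (0.39) and Fbln2 1438375_at (0.10). These were higher at LSK day 3 too (0.31, 0.79, 0.11 and 2.24), as was Lox 1437903_at (0.10), which was lower at LSK day 2. The remaining tested ones, of Lox, Mfap5 and Fbln1, were lower on both days. None of these differences passed. With arrays centred on the median of tested genes, Fbln1 was higher at LSK day 2 (0.22). Fbln2 at LSK day 3 was higher with the mean of all probe sets (0.95) or without LSK day 3 replicate 1 (0.22), as was Ltbp1 with the mean of all probe sets (0.06). Mfap5 at LSK day 3 was higher with centring (0.02), without LSK day 3 replicate 2 (0.68) or without day 0 replicate 2 (0.76). The groups did not overlap for 4 of the 8 at LSK day 2, all lower, where 16.2% of all genes were lower without overlap. Centring moved the all-gene median at LSK day 2 against day 0 to 0.62, and at LSK day 3 to 0.17.

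Other genes of elastic fibres were taken from 5 lists by role. None of 8 tested microfibril-associated genes, 8 elastin assembly genes, 9 cross-linking genes or 16 genes of TGF-beta release and readout was called in any comparison with all arrays. At LSK day 2 against day 0 their median changes were -1.17, -1.22, -1.19 and -0.51, beside -0.29 for all genes. Loxl1, a lysyl oxidase-like enzyme active on elastin, measured 4.82, 7.03 and 9.36 at LSK day 2 and 9.77, 9.96 and 8.87 at day 0 (-2.47 ± 0.90, adjusted p = 0.137). Mfap2, a fibrillin-binding glycoprotein gene, lay between 2.28 and 2.36 and was not tested, Tgfb1 lay between 2.28 and 2.63, and Efemp2 was not analysed here. Without LSK day 2 replicate 1, Efemp1, a fibulin gene, was called lower at LSK day 1 than at day 0 (-1.84 ± 0.47 with all arrays, adjusted p = 0.078, and 0.0235 without that array), as was Adamts6 (adjusted p = 0.0331). In the same comparison and fit 10.6% of all genes were called. Efemp1 averaged 13.72 at day 0, 12.37 in the medium control and 11.89 at LSK day 1. Adamts6 averaged 4.58, 3.45 and 3.00 in these groups, with 3.64 on day 0 replicate 3. Without LSK day 2 replicate 1, Itgb5, an integrin subunit, was called higher at LSK day 1 than in the medium control (1.47, adjusted p = 0.00502). Vcan, Tgfbr1 and Itgb1 were called lower there, where 17.2% of all genes were called. Against day 0, 1 gene of TGF-beta release and readout was called higher at LSK day 1 in that fit.

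Among 12 tested genes of elastin and microfibril breakdown, 2 were called higher and 2 lower at LSK day 2 against day 0. There 2.26% of all genes were called. At LSK day 3 against day 0, 2 were called higher (0.819% of all genes called). Without LSK day 2 replicate 1, 2 were called higher and 0 lower at LSK day 2 (2.48%). At LSK day 3 that fit had 2 higher and 3 lower (7.69%). In that fit LSK day 1 had 3 called higher and 1 lower against the medium control (17.2%). Against day 0 LSK day 1 had 2 higher and 1 lower (10.6%). LSK day 3 had 1 higher against LSK day 1 in that fit (0.221%). Ctss encodes cathepsin S, an elastin-cutting protease of myeloid cells. It measured 5.03, 7.61 and 6.34 at LSK day 1, 11.72, 8.69 and 9.33 at LSK day 2, and 9.89 and 11.48 at LSK day 3, against 2.91 and 3.36 in the medium control and 2.91, 4.84 and 3.06 at day 0. It rose by 6.31 ± 0.93 at LSK day 2 and by 7.08 ± 1.04 at LSK day 3, each against day 0 (adjusted p = 0.018 and 0.0233). Prtn3, the neutrophil protease proteinase 3, rose by 6.55 ± 1.02 and 6.47 ± 1.14 in the same comparisons (adjusted p = 0.0218 and 0.0407). Prtn3 is also 1 of the 16 blood cell markers, whose summed signal was higher on the same arrays, and the part of LSK-derived RNA in both rises was not tested. Mmp2, a gelatinase that also cuts elastin, measured 3.06, 2.91 and 3.28 at LSK day 2, against 4.45, 6.14 and 4.81 at day 0. It fell by 2.05 ± 0.41 (adjusted p = 0.0425). Ctsb, the lysosomal cathepsin B, fell by 1.15 ± 0.23 (adjusted p = 0.0425). Neither fall was called without LSK day 2 replicate 1 (adjusted p = 0.0625 and 0.0572). Both genes were also below day 0 in the medium control, without LSK cells. Mmp2 was 3.50 and 3.32 there. Ctsb was 11.82 and 11.85 there, against 12.46, 12.56 and 12.21 at day 0.

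The metalloproteinase inhibitor gene Timp1 measured 11.72, 11.39 and 11.52 at LSK day 1, against 10.32 and 10.44 in the medium control and 10.63, 10.28 and 9.80 at day 0. The 3 LSK day 1 arrays lay above the other 10. The change was 1.16 ± 0.47 against the medium control and 1.31 ± 0.42 against day 0, called only without LSK day 2 replicate 1 (adjusted p = 0.0238 and 0.0153, and 0.196 and 0.147 with all arrays). Mmp14, the membrane-bound metalloproteinase that activates Mmp2, differed from the medium control by -1.60 ± 0.49 at LSK day 1, again called only in that fit (adjusted p = 0.0273, and 0.0929 with all arrays). The other inhibitors of the list did not share the direction of Timp1. Timp2 measured 12.71, 12.56 and 12.29 at LSK day 1, against 13.94 and 13.89 in the medium control and 14.03, 14.06 and 13.34 at day 0. Timp3 averaged 11.02 ± 0.62 at LSK day 1, against 12.48 ± 0.00 in the medium control and 12.28 ± 0.51 at day 0. At LSK day 3 the 3 genes called lower than at day 0 without LSK day 2 replicate 1 were Mmp14 (-2.05, adjusted p = 0.0201), Timp2 (-1.86, adjusted p = 0.043) and Timp3 (-2.26, adjusted p = 0.0425).

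**Figure D4:**
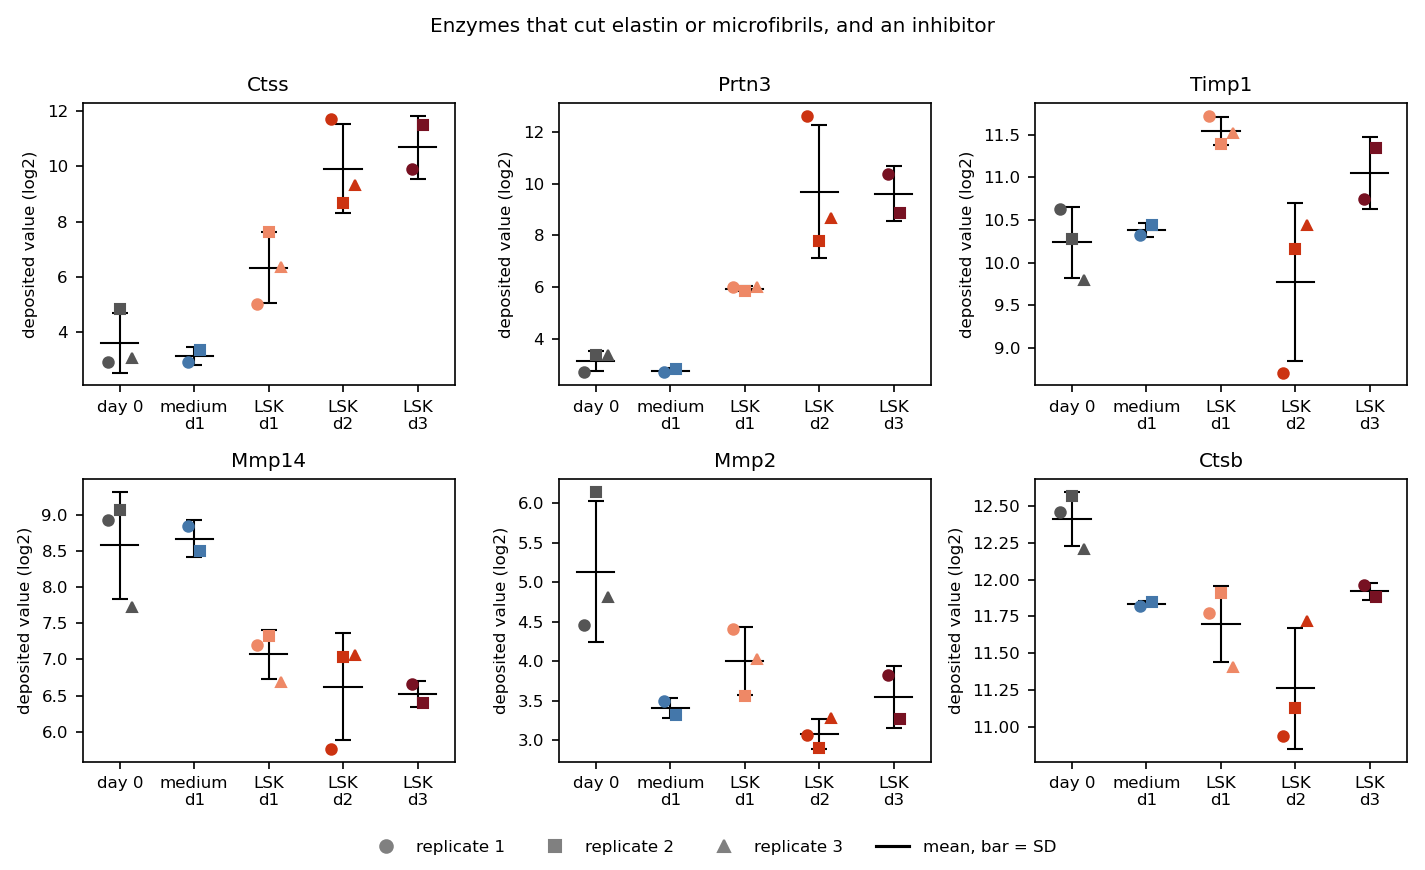
Deposited log2 value (vertical axis) by group (horizontal axis) of Ctss, Prtn3, Timp1, Mmp14, Mmp2 and Ctsb, with points for arrays, the long bar for the mean and the thin bar for the SD. Ctss and Prtn3 are higher on every LSK array than on every array without LSK cells, and all 3 Timp1 values at LSK day 1 lie at or above 11.39.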

How the data were processed

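RNA was measured on Affymetrix mouse arrays in 13 samples of 5 groups, taken from the sample titles. RNA came from a column kit and was amplified to biotin-labelled antisense RNA, per the labels' protocols. The authors deposited log2 values, a scale read from their span (2.28 to 15.74), and the submitters' processing notes name RMA and GCRMA without saying which made them. They were used as deposited, so an unknown share of low values reflects background correction. Scanner files were not used here.

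Of 45101 probe sets, 64 were controls; 34958 had 1 symbol, 932 had several and 9211 had none. A probe set entered if 2 or more arrays exceeded 2.38, the median of the whole table. All arrays entered 1 fit of group means in limma 3.58.1 (R 4.3.3), with Benjamini-Hochberg adjustment over 12205 genes and a threshold of 0.05. The code was tested on simulated data. Figures used Python 3.11.15. Precision is limited by how few arrays a group has.

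All 10 members were taken, of which 8 could be tested. Of other genes, those called in any comparison were named, up to 4 per list, with Efemp2, Loxl1, Mfap2 and Tgfb1 always taken; Timp1, Timp2, Timp3, Mmp14, Itgb5, Vcan, Tgfbr1, Itgb1, Efemp1 and Adamts6 were named for calls in a fit without 1 array. The members and lists were chosen with earlier results of these data known. Alternatives changed the filter, scaling, probe set rule, variance model, array weights, groups fitted and arrays left out, or used the replicate number as a block; testing every probe set was added after the data had been seen. Replicate numbers were not taken as a pairing, as the labels give none. Deviations from group means of same-numbered arrays correlated at 0.00 on average (-0.37 to 0.26). In groups of 2 arrays such deviations mirror each other, so these correlations cannot decide if the numbers pair the arrays.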

Additional observations from a re-analysis of the deposited data

How the results depend on the processing

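The number of members called moved with the fit. Percentages are the share of all genes called in the same fit. For the medium control against day 0 it was 0, and 5 with array weights (29.4%). For LSK day 1 against the medium control it was 0, but 4 with array weights (52.6%), 3 with only the compared groups in the fit (37.5%), 3 without both arrays that stood apart (21.1%), and 0 to 2 when each array was left out in turn. For LSK day 1 against day 0 it was 1, but 0 with a stricter filter, 3 with array weights (29.4%), 2 with only the compared groups (14.6%), 2 without both arrays that stood apart (13.6%), and 0 to 2 with an array left out. For LSK day 2 against day 0 it was 1, but 0 with the stricter filter, 3 with array weights (20.8%), 0 with only the compared groups, and 1 to 5 with an array left out; the 5, without LSK day 2 replicate 3 (28.7%), were Fbn2, Lox, Fbln5, Ltbp1 and Fbln2. For LSK day 3 against day 0 it was 1, but 0 with the stricter filter, array weights, only the compared groups or the replicate block, and 0 to 2 with an array left out. Between days of co-culture it was 0, but for LSK day 2 against LSK day 1 it was 2 with array weights (10.4%) and 0 to 3 with an array left out (15.5% for the 3), and for LSK day 3 against LSK day 1 it was 1 without both arrays that stood apart (0.86%) and 0 to 1 with an array left out. The stricter filter leaves out Fbn2, Fbln1 and Mfap5, so its 0 says nothing of Fbn2. It called 0.602%, 1.22% and 0.139% of its genes at LSK days 1, 2 and 3 against day 0. With only the compared groups fitted, 0% of all genes were called at LSK day 2 against day 0, and 0.213% at LSK day 3. At LSK day 3 against day 0 array weights called 1.37% of all genes and the replicate block 0.0328%.

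The replicate block, which the labels do not give as a pairing, ended the Fbn2 call at LSK day 3 (adjusted p = 0.0955) and changed no other call of a member. Fbn2 at LSK day 3 was also not called with array weights (adjusted p = 0.0794) or with only the compared groups (0.0627). With quantile normalization Fbn2 at LSK day 2 differed from day 0 by -4.28, and with centring by -3.45, and both were called. No change of a member called with all 13 arrays changed sign. Fbln2 in the medium control against day 0 was called with array weights (1.89, adjusted p = 0.00341) and was -0.44 with the mean of all probe sets (adjusted p = 1). In 16 of 56 member and comparison pairs at least 1 setting gave the opposite sign, with no call in that setting or with all arrays. Among all called genes as deposited, 41.4% were called higher at LSK day 1 against the medium control. Against day 0 the share was 38.4% at LSK day 1 and 28.3% at LSK day 2. Quantile normalization moved these 3 shares to 53.8%, 51.5% and 46.1%. Centring moved them to 32.0%, 31.2% and 53.6%, lower at LSK day 1 and higher at LSK day 2. In the medium control against day 0, 4 genes were called with centring, of which 50% were higher, where 40 were called as deposited, 67.5% of them higher. The causes of these differences were not tested.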
